A study of Mus musculus with 6 samples.

Results

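The genes described here encode neuronal proteins of the cytoskeleton (Tubb3, Dcx, Map2 and Stmn2), the synapse (Syn1 and Snap25), RNA binding (Rbfox3, Elavl3 and Elavl4) and cell adhesion (Ncam1). They were chosen by a list of 10 Ensembl identifiers, and 9 of them had a row among the 17144 genes of the expression table. The identifier of Tubb3 had none, so that gene was not analysed here. The arrays (Affymetrix mouse expression arrays) were hybridized with biotinylated cRNA made from total RNA. The RNA came from wild type mouse ESCs of line V6.5 (129SvJae/C57B6 F1 background), a line derived from a blastocyst. It also came from wild type NPCs made from these ESCs in vitro. ESCs were grown in serum with LIF, and NPCs on polyornithine and laminin in N3 medium with bFGF and EGF, in which they divide as progenitors and form neurons once the growth factors are withdrawn. Each cell type had 3 biological replicates with 1 array each, and all 6 arrays came from the same parental line. The spread between arrays is thus not that of independent ESC lines. The labels do not say whether the NPC replicates were parallel cultures or separate derivations.

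A cell that becomes a neuron stops dividing, builds stable microtubules for axons and dendrites, and later assembles synapses. Proteins that bind or regulate microtubules appear early in this sequence, and those of the synaptic vesicle appear late. The RNA-binding proteins of the ELAV and RBFOX families shape the stability and splicing of neuronal transcripts, and several genes of both kinds are held silent outside neurons by the repressor REST. These genes are often used as markers that neurons have formed, and the question put to the arrays was which of them differ between ESCs and NPCs.

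They did not move in 1 direction. Of the 9 genes, 3 were higher in NPCs (Map2, Ncam1 and Dcx) and 2 were lower (Stmn2 and Elavl3). The other 4 (Syn1, Snap25, Rbfox3 and Elavl4) were not called. Snap25 met the p threshold (limma adjusted p = 0.0195) but not the fold threshold. The test was limma. A call needed a Benjamini-Hochberg adjusted p under 0.05 over all 17144 genes together with means that differed by more than 1.5-fold. By this rule 15.4% of all genes were higher in NPCs, 18.7% were lower, and 34.1% were called in either direction. The 5 called genes of 9 stand beside that background, and with so few genes nothing is read from the excess. The NPC arrays lay wholly above the ESC arrays for 3 of the 9 genes and wholly below for 3, where 26.1% and 32.6% of all genes, together 58.7%, showed no overlap. The median difference over the 9 genes was 0.083 on the log2 scale, against -0.036 over all genes, and the median size of the difference was 1.08 against 0.33. Map2 had the 32nd largest rise of all genes and Stmn2 the 21st largest fall, and a called difference of more than 4 on the log2 scale was seen in 1.60% of genes.

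**Figure D1:**
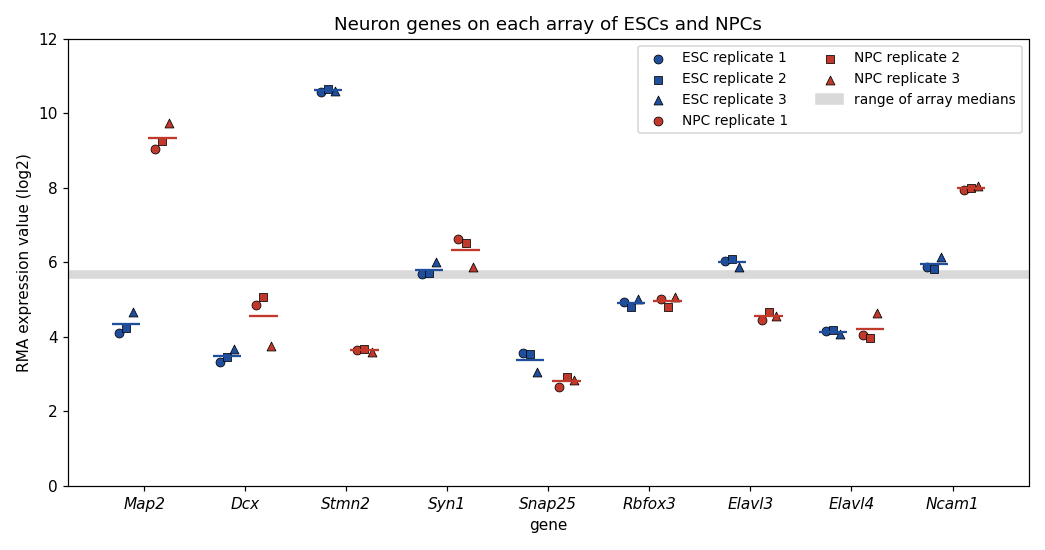
Log2 RMA expression value (y axis) of the 9 genes (x axis) on every array, with ESC arrays in blue, NPC arrays in red, the replicate number as marker shape, and the mean of each cell type as a short line; the grey band is the range of the medians of the 6 arrays. Stmn2 falls from 10.62 to 3.64, Map2 rises from 4.34 to 9.35, and NPC replicate 3 (triangle) lies apart from the other NPC arrays for Dcx and Syn1.

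Marker genes of the cell types are given as far as these could be named. Names came almost entirely from a list of rising genes, and 97.2% of the 1995 named genes other than the 9 were called higher in NPCs, so the counts of named genes called higher, here and below, were set by the naming and do not check the labels. Among NPC markers, 6 of 12 were named, and the 6 were called higher, among them Nes (difference 2.05), Vim (3.29) and the radial glial lipid carrier Fabp7 (9.27), while the ESC factor Pou5f1, the single named gene of 12 ESC markers, fell by 8.74 on the log2 scale. Falls of other markers could not be seen. Of markers of other cell types, the named ones all rose in NPCs, with 3 of 8 named for astrocytes (Sparcl1, S100b and Aldoc), 2 of 9 for the oligodendrocyte lineage (Olig1 and Olig2) and 1 of 10 for fibroblasts (Fbn1), and their part in the results was not tested. Among proneural and neuroblast genes, 3 of 18 were named and all 3 were called higher, among them Sox4 (difference 2.96) and the Notch ligand Dll1 (1.71). NPC replicate 3 stood apart from the other NPC arrays, with a correlation across genes of 0.978 to 0.979 with them, against 0.997 between NPC replicates 1 and 2 and 0.996 to 0.998 among ESC arrays. Values without that array are given below for some, not all, of the genes in which it lay far from the others. In RNA from whole cultures, fewer cells that express a gene and less RNA per cell cannot be told apart.

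The promoters of 4 genes are shown because they belong to genes that rose (Map2 and Dcx), that fell (Elavl3) and that did not pass the test (Syn1). RefSeq promoter sequences (GRCm38.p6) were at hand for 6 of the 9 genes (Map2, Dcx, Rbfox3, Syn1, Elavl3 and Elavl4). Each sequence covers the 250 bases before a start site, 5′ to 3′ on the strand of the gene, and capitals mark matches to searched motifs. The Map2 window is chr1:66175079-66175328 on the plus strand, the Dcx window chrX:143933220-143933469, the Elavl3 window chr9:22052024-22052273 and the Syn1 window chrX:20920919-20921168, all 3 of these on the minus strand.
Map2: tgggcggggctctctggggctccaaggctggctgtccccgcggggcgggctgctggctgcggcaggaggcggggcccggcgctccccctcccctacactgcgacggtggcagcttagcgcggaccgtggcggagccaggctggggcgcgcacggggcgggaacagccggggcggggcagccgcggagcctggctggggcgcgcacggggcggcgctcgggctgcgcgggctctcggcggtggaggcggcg
Dcx: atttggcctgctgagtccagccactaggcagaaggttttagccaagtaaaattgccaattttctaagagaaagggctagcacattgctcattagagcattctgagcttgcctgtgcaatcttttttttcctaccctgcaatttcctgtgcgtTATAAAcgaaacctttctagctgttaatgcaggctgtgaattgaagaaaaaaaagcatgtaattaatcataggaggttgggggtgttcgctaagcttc
Elavl3: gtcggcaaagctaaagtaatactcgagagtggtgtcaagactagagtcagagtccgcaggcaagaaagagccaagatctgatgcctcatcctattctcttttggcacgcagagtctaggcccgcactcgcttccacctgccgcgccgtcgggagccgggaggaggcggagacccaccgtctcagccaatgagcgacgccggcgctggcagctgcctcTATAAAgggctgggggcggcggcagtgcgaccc
Syn1: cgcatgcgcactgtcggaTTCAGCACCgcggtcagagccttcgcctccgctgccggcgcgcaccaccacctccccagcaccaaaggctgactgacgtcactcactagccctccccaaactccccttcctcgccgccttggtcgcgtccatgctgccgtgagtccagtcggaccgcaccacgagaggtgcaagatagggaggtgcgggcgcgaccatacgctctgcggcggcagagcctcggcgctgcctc

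The searched letters, on both strands, were CTTTGTT (a SOX motif), ATGCATAT (a POU octamer), TATAAA, and TTCAGCACC, which is the left part of the RE1 element that REST binds. None of these motifs overlaps another in the windows shown. The Syn1 window holds TTCAGCACC, which begins 232 bases before the start site and occurs in 0.301% of the 32851 promoter windows of the mouse table. TATAAA lies 33 bases before the Elavl3 start and 98 bases before the Dcx start, and is found in 12.4% of windows. CTTTGTT, present in 5.03% of windows, was found in the Rbfox3 window and in a second Dcx window that starts further downstream. ATGCATAT, present in 0.718% of windows, was in none of the windows of the 6 genes. The windows also differed in composition. The share of G and C was 81.2% for Map2, 68.0% for Syn1 and 61.6% for Elavl3 but 41.6% for Dcx, against a median of 52.4% over all windows. CpG dinucleotides numbered 34, 27, 20 and 3 in the same order, with a median of 6 over all windows. The genes that rose thus include both the window richest in CpG and the poorest of the 4, and these matches are descriptions of the letters with no binding measured here.

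Microtubule proteins showed the widest range of responses. Map2 (ENSMUSG00000015222_at), which binds and stabilizes microtubules in dendrites, read 4.12, 4.23 and 4.68 on the ESC arrays and 9.03, 9.26 and 9.75 on the NPC arrays. All NPC values lay more than 4 log2 units above all ESC values. The mean was 4.34 ± 0.30 (SD, n = 3 arrays) in ESCs and 9.35 ± 0.37 in NPCs, a rise of 5.01 on the log2 scale or 32.2-fold (SE 0.22, limma adjusted p = 2.49e-06). Within the arrays the Map2 signal moved from percentile 30.6 to percentile 91.6 of all genes. Without NPC replicate 3, its highest array, the rise was 4.81.

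Stmn2 (ENSMUSG00000027500_at) encodes the stathmin SCG10, a microtubule-destabilizing protein of growth cones that is commonly taken as neuronal. Its values were 10.58, 10.66 and 10.61 in ESCs and 3.64, 3.67 and 3.59 in NPCs. Here the order of the cell types was the reverse of that of Map2, with every ESC array about 7 log2 units above every NPC array. The means were 10.62 ± 0.04 and 3.64 ± 0.04 (SD, n = 3 arrays each), so that Stmn2 fell by 6.98 on the log2 scale, or 126-fold (SE 0.07, limma adjusted p = 1.07e-08). The signal went from percentile 97.1 in ESCs to percentile 18.9 in NPCs, where detection was not assessed. Its SD among arrays was the smallest of the 9 genes in both cell types. Leaving out single arrays gave differences from -7.00 to -6.96.

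Dcx (ENSMUSG00000031285_at), the doublecortin of migrating neuroblasts and young neurons, was called higher, but its NPC arrays disagreed. ESC arrays read 3.33, 3.45 and 3.68, and NPC arrays 4.86, 5.06 and 3.76. NPC replicates 1 and 2 were thus well above the ESC arrays, while replicate 3 exceeded the highest of them by less than 0.1. The signal lay at percentile 14.8 in ESCs and 35.2 in NPCs, with 21.8 in NPC replicate 3, and detection was not assessed. The difference of means was 1.08, or 2.11-fold (SE 0.32, limma adjusted p = 0.0276). Without NPC replicate 3 it was 1.48 with an adjusted p of 1.36e-05, and when any of the other 5 arrays was left out Dcx was no longer called, with adjusted p values of 0.0604 to 0.0897.

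The list of neuronal microtubule and cytoskeleton genes held 22 others besides these, of which 6 could be named, and all 6 were called higher in NPCs with differences of 1.01 to 4.57. Because the names came from rising genes, this count says nothing about the 16 that were not named. Gap43, a growth cone protein, rose most (4.57) and read 8.32, 8.55 and 10.11 in NPCs, so replicate 3 was its highest array, and without it the rise was 4.01. Dclk1, which has doublecortin domains like Dcx, read 7.13, 7.26 and 6.79 in NPCs against 3.93, 3.72 and 3.94 in ESCs, and rose by 3.20 (limma adjusted p = 2.39e-06). Its replicate 3 was also the lowest NPC array, at -0.41 from the mean of the others, against -1.20 for Dcx. Tubb2a, a beta-tubulin, rose by 2.05, and the collapsin response mediators Dpysl2 and Dpysl3 rose by 1.44 and 1.01.

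Neither synaptic gene was called. Syn1 (ENSMUSG00000037217_at), the synapsin that tethers synaptic vesicles, read 5.68, 5.71 and 6.01 in ESCs and 6.62, 6.52 and 5.88 in NPCs. The cell types overlapped, since NPC replicate 3 lay below ESC replicate 3. The difference of 0.54 (95% interval 0.06 to 1.02, limma adjusted p = 0.0641) was not called. It was called in 3 other settings, at 0.77 without NPC replicate 3 (adjusted p = 0.000532), at 0.65 after quantile normalization (0.0292) and at 0.70 after median centring (0.0237), and over all alternatives the adjusted p lay between 0.000532 and 0.182.

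Snap25 (ENSMUSG00000027273_at), a membrane-fusion protein of the SNARE complex at nerve terminals, had values of 3.57, 3.54 and 3.04 in ESCs and 2.65, 2.92 and 2.85 in NPCs. Every NPC array was below every ESC array, but all lay at the low end of the arrays, at percentile 13.1 in ESCs and 2.66 in NPCs, where detection was not assessed. The difference of -0.58 (SE 0.16, limma adjusted p = 0.0195) is 1.49-fold and so just missed the 1.5-fold threshold. Without ESC replicate 3, its lowest ESC array, the difference was -0.75 and the gene was called, as it also was without NPC replicate 2 (-0.64) and without NPC replicate 3 (-0.60). In other settings its limma adjusted p rose above the threshold, to 0.0742 without ESC replicate 1, 0.0748 without ESC replicate 2, 0.0652 without NPC replicate 1 and 0.0629 after median centring, where the difference was -0.43.

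Of the other 22 genes listed for synaptic vesicles and membrane fusion, 6 were named, almost all names being those of rising genes, and the 6 were called higher in NPCs. The synaptotagmins Syt11 and Syt1 rose by 4.35 and 2.59, the complexin Cplx2 by 1.86, the synapsin Syn2 by 1.66 and the vesicle protein Vamp2 by 0.95. Syn2 read 5.82, 5.72 and 5.89 in NPCs and 4.16, 3.96 and 4.33 in ESCs, so that, unlike Syn1, it showed no overlap between the cell types. Whether the changes of Syn1 and Syn2 differ was not tested. Syt1 was lowest in replicate 3 among NPC arrays, as Syn1 and Dcx were, at 6.93, 7.02 and 4.90, and its rise was 3.28 without that array.

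**Figure D2:**
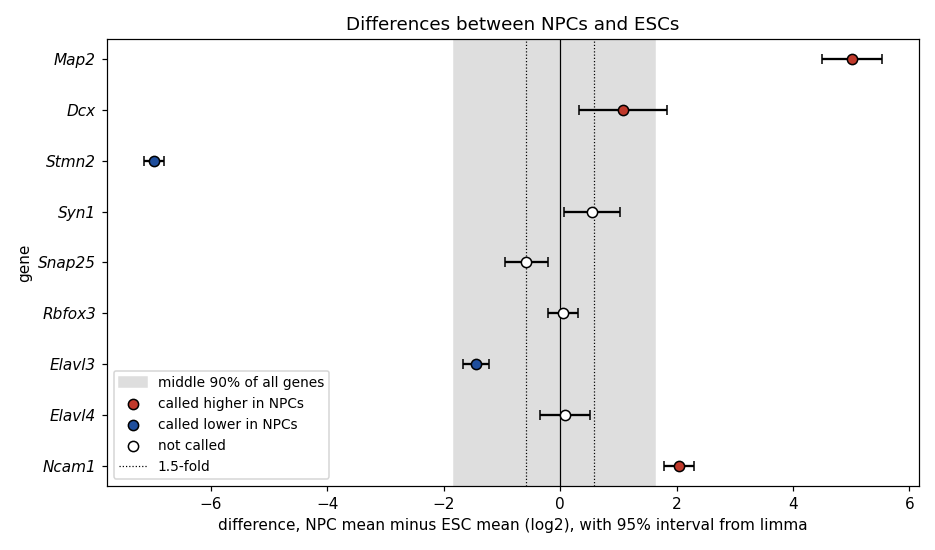
Difference between the NPC mean and the ESC mean of each gene (x axis, log2) with its 95% interval from limma, for the 9 genes (y axis); filled points were called, dotted lines mark 1.5-fold, and the grey band holds the middle 90% of all genes. Map2, Ncam1 and Stmn2 lie outside the band of -1.83 to 1.62, and the intervals of Rbfox3 and Elavl4 include 0.

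Among the RNA-binding proteins 1 of 3 was called. Elavl3 (ENSMUSG00000003410_at, HuC), a neuronal member of the ELAV family that binds AU-rich elements, read 6.03, 6.08 and 5.89 in ESCs and 4.44, 4.67 and 4.55 in NPCs. The cell types did not overlap and the arrays of each lay close together. Elavl3 fell by 1.44 on the log2 scale, or 2.72-fold (SE 0.10, limma adjusted p = 1.97e-05), and its signal went from percentile 53.3 to percentile 36.0. Elavl4 (ENSMUSG00000028546_at, HuD), its close relative, had values of 4.17, 4.19 and 4.07 in ESCs and 4.05, 3.97 and 4.65 in NPCs. NPC replicates 1 and 2 were below all ESC arrays and replicate 3 above all of them. The difference was 0.083 (95% interval -0.34 to 0.51, adjusted p = 0.752), and -0.13 without NPC replicate 3 (adjusted p = 0.222), both from limma.

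Rbfox3 (ENSMUSG00000025576_at) encodes NeuN, a splicing regulator that marks the nuclei of most mature neurons. It read 4.93, 4.80 and 5.03 in ESCs and 5.03, 4.80 and 5.07 in NPCs, and the ranges of the cell types overlapped. The difference was 0.048 with a 95% interval of -0.20 to 0.30 (limma adjusted p = 0.755). A change of 1.5-fold in the array values, or 0.585 on the log2 scale, thus lay outside the interval in both directions. The signal lay at percentile 39.2 in ESCs and 42.0 in NPCs, and detection was not assessed. The list of neuronal RNA-binding proteins had 13 others, of which Nova1 and Msi2 were named. Nova1, a neuronal splicing factor, rose by 2.42 and Msi2, an RNA-binding protein of neural progenitors, by 1.09, and both were highest in NPC replicate 3. Without that array the rises were 2.04 for Nova1 and 0.85 for Msi2.

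Ncam1 (ENSMUSG00000039542_at), the neural cell adhesion molecule found on progenitors, neurons and glia, rose evenly. Its values were 5.88, 5.81 and 6.16 in ESCs and 7.94, 8.001 and 8.05 in NPCs. No NPC array overlapped an ESC array, and the SD was 0.05 in NPCs and 0.18 in ESCs (n = 3 arrays each). The rise of 2.05 was 4.14-fold (SE 0.11, limma adjusted p = 6.31e-06) and took the signal from percentile 52.6 to percentile 79.5. Of the 9 other genes in its list of neural adhesion molecules, 5 were named, again mostly through rising genes, and 4 of them were called higher. Cntn1 rose by 2.48, Nrcam by 1.85 and Ncam2 by 1.07. St8sia2, which adds polysialic acid to NCAM, rose by 1.03. Without NPC replicate 3 the rise was 0.83 for Ncam2 and 1.29 for St8sia2. Chl1 was not called (difference 1.60, limma adjusted p = 0.0566), and read 3.98, 3.89 and 6.22 in NPCs against 3.05 to 3.18 in ESCs. Without NPC replicate 3 its difference was 0.84 and it was called (limma adjusted p = 4.80e-05).

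The spread among NPC arrays divided the 9 genes. Between NPC replicate 3 and the mean of replicates 1 and 2, 4 of the 9 genes differed by more than 1.5-fold, where 11.6% of all genes did, and 1 differed by more than 2-fold, where 4.00% did. Replicate 3 minus that mean was -1.20 for Dcx and -0.69 for Syn1 on the log2 scale, while it was 0.64 for Elavl4 and 0.60 for Map2. The other 5 genes, among them Stmn2, Elavl3 and Ncam1, differed by 0.16 or less. Replicate 1 minus replicate 2 was between -0.28 (Snap25) and 0.23 (Rbfox3), and between this pair 0.857% of all genes differed by more than 1.5-fold. These are differences of single arrays with no test. The sample titles are NP106 and NP107 for NPC replicates 1 and 2 and NP39 for replicate 3, and the labels give no condition that separates replicate 3.

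**Figure D3:**
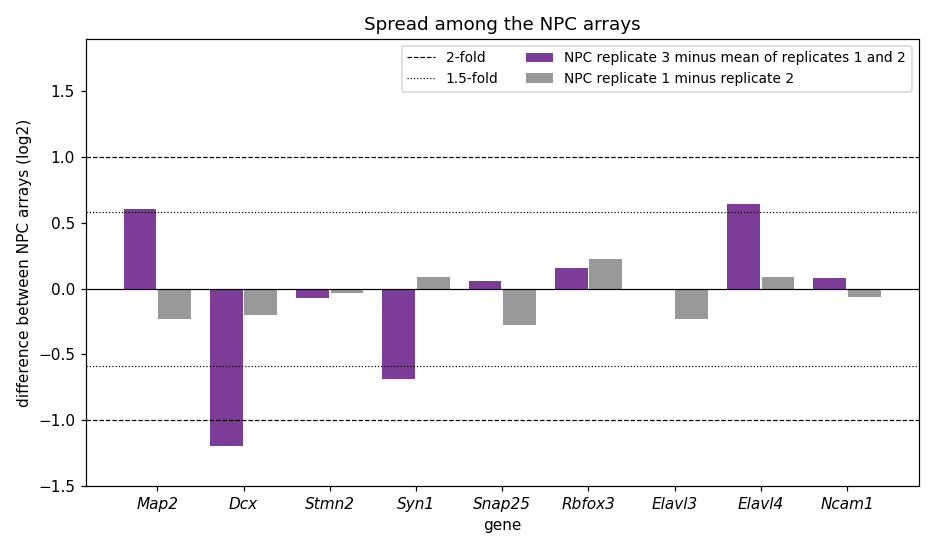
Differences between NPC arrays (y axis, log2) for each gene (x axis): NPC replicate 3 minus the mean of replicates 1 and 2 in purple, and replicate 1 minus replicate 2 in grey, with dotted lines at 1.5-fold and dashed lines at 2-fold. Dcx at -1.20 and Syn1 at -0.69 lie below, Map2 at 0.60 and Elavl4 at 0.64 above, and no grey bar reaches 1.5-fold.

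For each called gene the named genes with the most similar values were found, by Euclidean distance over the 6 arrays after the ESC mean of each gene was subtracted. Nearest to Dcx were Gnb4 (distance 0.16), Casp12 (0.17) and Col9a1 (0.21), which were all low in NPC replicate 3. Itgb8 (0.54), Neto1 (0.59) and Calcrl (0.61) lay nearest to Map2, and each read highest in replicate 3. That array was part of the distance, so its place in these neighbours follows from how they were picked. The nearest to Ncam1 were Ano6 (0.22), Tada1 (0.25) and Plcl2 (0.26). Few falling genes had a name, so the nearest to Stmn2 was Pou5f1 at a distance of 3.05, followed by Rfx2 (8.42) and Elavl3 itself (9.59). Pou2f1 (0.40), Pou4f2 (1.17) and Rfx2 (1.26) came nearest to Elavl3. Some names were read from lists of POU and other transcription factors, so nothing is read from the families of these neighbours. These distances rest on 6 arrays and on the 2004 named genes.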

How the data were processed

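Total RNA was measured on 1 Affymetrix mouse expression array per biological replicate, and samples were grouped by the labels into 3 ESC and 3 NPC arrays. The deposited values are log2 values that the authors made by RMA (background correction, quantile normalization of probes, summary per Ensembl gene under the BrainCDF annotation, whose version is not given in the sources used here). RMA compresses differences of dim genes, and signals of different probe sets are not comparable as abundance. Arrays carry no counts, and their number limits the precision. After 64 control probe sets were left out, 17144 genes were fitted with limma 3.58.1 in R 4.3.3 (all 6 arrays, no covariates, no filter). The study's methods use a moderated Welch test, which was run as an alternative with their thresholds (adjusted p under 0.05, over 1.5-fold). Percentiles are the share of an array's genes at or below a value. The test was checked on simulated arrays.

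The table holds no gene symbols. The symbols of the 9 genes came with the list of identifiers. For Dcx, Map2 (printed as Mtap2) and Ncam1 all 6 array values also equalled those of a row that the study prints with that name, within 0.0001, and the other 6 could not be checked in this way. Other genes were named by the same match, 2004 in all. The main printed table runs from the largest rise downwards and its top part alone was used, so few falling genes have names. Some names were also read from printed lists of POU factors and of other transcription factors. The columns of the study's own comparison were not used. Named are all 9 genes, at most 6 called genes per list, and the 3 nearest named genes of each called gene; Chl1 was added after its values were seen, and some listed genes are not reported here. The genes and lists were chosen with earlier results of these data known. Python 3.11.15, pandas 2.3.3 and matplotlib 3.10.9 served for tables and figures.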

Additional observations from a re-analysis of the deposited data

How the results depend on the processing

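The alternatives were the moderated Welch test, trend and robust variances, a replicate block, median centring, quantile normalization, filters on the mean value (25th percentile or median), a fold threshold of 2 or none, and fits without 1 of the arrays. Map2, Ncam1, Stmn2 and Elavl3 kept their direction and their call in every alternative that tested them. Of the 128 values of the 9 genes under an alternative, 113 kept both their sign and their status as called or not called. Another 5 were no longer called (all Dcx), 7 became called (3 of Syn1 and 4 of Snap25) and 3 changed sign. Those were Rbfox3 at -0.010 without ESC replicate 2 and -0.0034 without NPC replicate 3, and Elavl4 at -0.13 without NPC replicate 3. Over the fits without 1 of the arrays, Rbfox3 lay at -0.010 to 0.13 and Elavl4 at -0.13 to 0.21. Median centring gave 0.20 for Rbfox3 and 0.24 for Elavl4, and quantile normalization 0.20 and 0.19, with neither gene called. Dcx and Snap25 were removed by both filters, and Rbfox3, Elavl3 and Elavl4 by the filter at the median, which left 1 of the 9 genes called lower. With each array left out, 2 to 4 of the 9 were called higher and 2 or 3 lower; without NPC replicate 3 the counts were 4 and 3. Over all genes 2638 were higher and 3213 lower, against 1615 and 1977 with a 2-fold threshold. Median centring moved the median of all differences from -0.036 to 0.12 and the part of the called genes that was higher from 45.1% to 55.6%. In the pairing check, deviations of arrays with the same number correlated at -0.0064 to 0.026. No pairing was seen and the labels state none, but with so few arrays the check cannot exclude it. With the replicate block 2649 genes were higher and 3218 lower, with 3 and 2 of the 9.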
